A study of Homo sapiens and Mus musculus with 160 samples.

Results

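The proteasome genes described here are those whose symbol, ignoring case, is PSM followed by a letter from A to G and a number. They were picked by a rule on names, applied to the gene symbols of the deposited half-life tables of a human and a mouse cell line. The rule was set with earlier results of these data known. The rule found 48 of 18165 listed human genes, which were 19 core genes (PSMA and PSMB), 20 cap genes (PSMC and PSMD), 5 activator or inhibitor genes (PSME and PSMF) and 4 assembly genes (PSMG). It found 47 of 17985 mouse genes, with 18 core genes and the same numbers of the other classes. Human symbols are used below for both species.

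The proteasome is the protease complex that breaks down ubiquitin-tagged proteins in the cytoplasm and nucleus of nearly all cells. Its core is a stack of rings in which PSMA subunits form the outer and PSMB subunits the inner rings, and 3 of the constitutive PSMB subunits carry the peptide-cutting sites. The cap binds ubiquitin, removes it and unfolds the substrate with a ring of PSMC ATPases, while activators of the PSME family open the core without ubiquitin and dedicated chaperones help to assemble core and cap. As subunits are needed in fixed proportions, the turnover of their mRNAs is of interest as a group.

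The study followed RNA through the compartments of K562, an erythroid-like human line from chronic myelogenous leukaemia, and of NIH-3T3, a line of mouse embryonic fibroblasts, both wild type and untreated. New RNA was marked with 4-thiouridine, which replaces uridine, over 0, 15, 30, 60 or 120 minutes, and libraries were made from chromatin, nuclear, cytoplasmic, polysomal and total RNA after chemical recoding of the analog (TimeLapse-seq). The 100 untreated samples, 50 per line, formed 2 replicate time courses per line, and 60 K562 samples with shRNAs were not analysed here. The labels name no clone and no shared handling of the replicates, and do not say whether the replicates were separate cultures, so every p-value below measures only the spread between these time courses, which may be technical.

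The authors fitted each time course with a kinetic model and deposited 1 table per line and replicate, which gives up to 6 half-lives in minutes for each gene. They describe release from chromatin, stay in the nucleus, export out of it, turnover in the cytoplasm, polysome loading, and turnover in whole cells. Values below are posterior modes for replicate 1 and then replicate 2, with the authors' 95% credible interval in parentheses where it is given. The depth of reads behind a value is unknown here. Each value is an average over the cells of a culture, so a different mix of cells and a different rate within every cell cannot be told apart. As a check of the lines, 10 of 10 erythroid marker genes and 3 of 10 fibroblast marker genes had whole-cell half-lives in the K562 tables, against 1 of 10 erythroid markers (TFRC, which is widely expressed) and 10 of 10 fibroblast markers in the NIH-3T3 tables. Markers were matched by symbol ignoring case, so a human gene without a mouse gene of that symbol counts as absent. The globin genes HBG1, HBG2 and HBE1 were among those absent in NIH-3T3.

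Proteasome mRNAs were long-lived in both lines. Their median whole-cell half-life was 535 and 510 min in K562, beside 210 and 200 min over all genes, and 270 and 270 min in NIH-3T3, beside 110 and 110 min. Values over 120 min lie beyond the longest labelling time, so these long half-lives and the ranks among them are extrapolated by the fit. In K562, 38 of the 44 members with a value lay above the median gene with both intervals, where 31.6% of all genes did. The 2 members below it were PSMD9 and PSMG4, where 32.3% of all genes lay below. In NIH-3T3, 39 of 45 lay above (34.0% of all genes) and 3 lay below (33.3% of all genes), namely PSMB3, PSMF1 and PSMG3. No member lay below the median gene in both lines. Members also varied less among themselves than all genes did, with an SD of log2 whole-cell half-life of 0.84 and 0.87 in K562 against 1.37 and 1.36 over all genes, and of 0.87 and 0.74 against 1.29 and 1.29 in NIH-3T3.

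**Figure D1:**
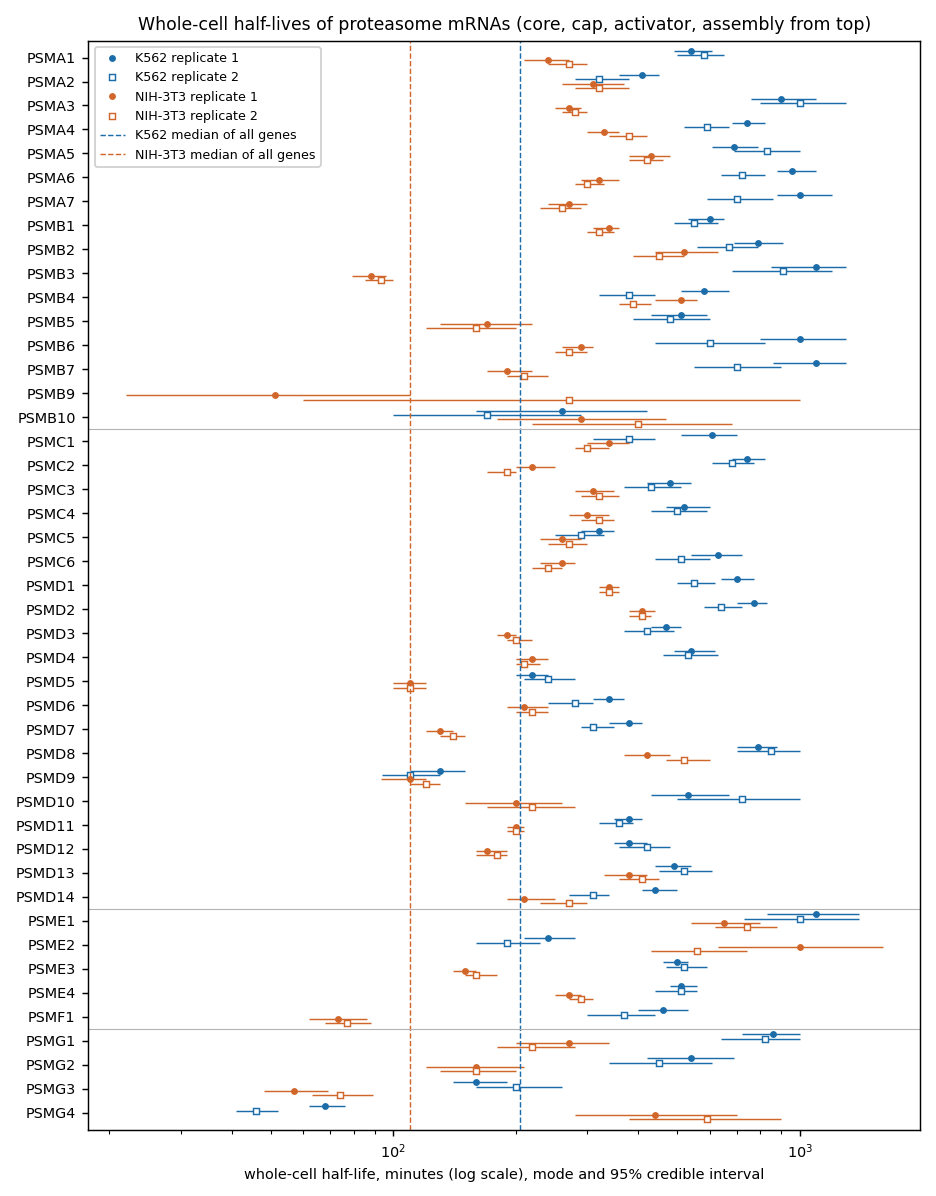
Whole-cell half-life of each proteasome mRNA in minutes on a log axis, as posterior modes (points) with the authors' 95% credible intervals (bars) in the 2 K562 and the 2 NIH-3T3 tables; dashed lines mark the median of all genes in each line. Most members lie to the right of their line's median, and PSMG4 and PSME2 are the members with K562 points left of both NIH-3T3 points by clear intervals.

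Members without a whole-cell half-life in both tables of a line belonged to the tissue-restricted or interferon-induced core genes. They were PSMA8, a testis alpha subunit, PSMB11, the thymus subunit, and the interferon-induced PSMB8 and PSMB9 in K562, and PSMB8 and PSMB11 in NIH-3T3. PSMB9 had 51 (22 to 110) and 270 (60 to 1000) min in NIH-3T3, so its replicates were far apart and its intervals wide.

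The classes differed in level. Taking the geometric mean of both tables for each gene, the class median whole-cell half-life in K562 was 728 min for the core, 468 min for the cap, 510 min for the activators and inhibitor, and 297 min for the assembly genes. In NIH-3T3 the same medians were 294, 226, 280 and 197 min, with core mRNAs highest and assembly mRNAs lowest on these values. In NIH-3T3 replicate 2 the core and the activator class had the same median of 290 min, and without the inhibitor PSMF1 the activators had 460 and 425 min in NIH-3T3, above the 290 and 290 min of the core. All of these medians exceeded those of all genes, which were 208 min in K562 and 110 min in NIH-3T3. These are descriptions of small classes and were not tested.

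Among core genes, the PSMA subunits of the outer rings had whole-cell half-lives in K562 from 320 min (PSMA2, replicate 2) to 1000 min (PSMA3 and PSMA7), and in NIH-3T3 from 240 min (PSMA1) to 430 min (PSMA5). PSMA3 had 900 and 1000 min in K562 and 270 and 280 min in NIH-3T3, which placed it among the 3 longest-lived members in K562. PSMB2, a non-catalytic inner-ring subunit and the core gene nearest to the class median, had 790 and 670 min in K562 and 520 and 450 min in NIH-3T3. Its 2 NIH-3T3 values lay below both K562 values.

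PSMB3, another non-catalytic inner-ring subunit, had 1100 (850 to 1300) and 910 (680 to 1200) min in K562 but 88 (79 to 96) and 93 (85 to 100) min in NIH-3T3. It was the second longest-lived member in K562 and the third shortest-lived in NIH-3T3. The other 6 constitutive PSMB mRNAs ranged from 160 to 520 min in NIH-3T3, so PSMB3 stood apart from its own ring there.

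The catalytic subunits exist as pairs, in which an interferon-induced subunit replaces a constitutive one in the immunoproteasome. PSMB5, the chymotrypsin-like site, had whole-cell half-lives of 510 and 480 min in K562 and 170 and 160 min in NIH-3T3, while its counterpart PSMB8 had none. PSMB6, the caspase-like site, had 1000 and 600 min in K562 and 290 and 270 min in NIH-3T3. PSMB7, the trypsin-like site, had 1100 and 700 min in K562 and 190 and 210 min in NIH-3T3. Its counterpart PSMB10 had 260 (160 to 420) and 170 (100 to 290) min in K562 and 290 and 400 min in NIH-3T3. Thus the modes of PSMB10 lay below those of PSMB7 in both K562 tables and above them in both NIH-3T3 tables, where the wide intervals of PSMB10 reached down to 180 and 220 min.

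The immunoproteasome mRNAs gave few other values. PSMB8 had nuclear half-lives of 150 and 70 min and cytoplasmic ones of 54 and 72 min in K562, and no value in NIH-3T3. PSMB9 had short nuclear half-lives of 20 and 26 min in K562. Its cytoplasmic modes of 6900 and 6900 min in K562 sit at the upper bound of the fit, above their own intervals of 100 to 5400 and 110 to 5500 min, and give no usable size.

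Among cap genes, PSMC1, an ATPase of the base and together with PSMC3 nearest to the class median, had 610 and 380 min in K562 and 340 and 300 min in NIH-3T3. The 3 base scaffold or ubiquitin-receptor subunits PSMD1, PSMD2 and PSMD4 ranged from 530 to 770 min in K562 and from 210 to 410 min in NIH-3T3. The 8 lid subunits, which include the deubiquitinase PSMD14, ranged from 280 to 850 min in K562 and from 130 to 520 min in NIH-3T3. PSMD8, a lid subunit, held the top of that range in both lines.

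PSMD5, PSMD9 and PSMD10 are chaperones of the base that leave before the cap is complete. PSMD9 had 130 and 110 min in K562 and 110 and 120 min in NIH-3T3, the second shortest-lived member in K562. PSMD5 had 220 and 240 min in K562 and 110 and 110 min in NIH-3T3. PSMD10 had 530 and 720 min in K562 and 200 and 220 min in NIH-3T3, close to the cap subunits. Counting these 3 with the assembly genes lowered the assembly median to 230 min in K562 and 160 min in NIH-3T3.

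The activators took both ends of the range. PSME1, the alpha subunit of an interferon-induced activator, had 1100 and 1000 min in K562 and 650 and 740 min in NIH-3T3, and ranked first among the members in K562 and second in NIH-3T3. PSME2, its beta partner, had 240 and 190 min in K562 and 1000 (630 to 1600) and 560 (430 to 740) min in NIH-3T3. PSME1 thus lay above PSME2 in both K562 tables, while the values of the partners overlapped in NIH-3T3.

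PSME3, a nuclear activator, had 500 and 520 min in K562 and 150 and 160 min in NIH-3T3. PSME4, an activator found in nuclei, had 510 and 510 min in K562 and 270 and 290 min in NIH-3T3. PSMF1, which encodes the proteasome inhibitor PI31, had 460 and 370 min in K562 and 73 and 77 min in NIH-3T3. It was the second shortest-lived member in NIH-3T3.

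The 4 PSMG chaperones work as pairs, PSMG1 with PSMG2 and PSMG3 with PSMG4, and build the core. PSMG1 had 860 and 820 min in K562 and 270 and 220 min in NIH-3T3. PSMG2 had 540 and 450 min in K562 and 160 and 160 min in NIH-3T3. Both partners of the first pair lay in the range of the core subunits.

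The second pair lay lower. PSMG3 had 160 and 200 min in K562, where it was the third shortest-lived member and as near to the class median as PSMG2. In NIH-3T3 it had 57 and 74 min, the shortest of all ranked members in the mouse line. PSMG4 had 68 (62 to 76) and 46 (41 to 52) min in K562, the shortest of all ranked members there, but 440 (280 to 700) and 590 (380 to 900) min in NIH-3T3, the third longest. Both chaperones of this pair lay below PSMG1 and PSMG2 in K562, and they stood at opposite ends of the members in NIH-3T3.

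In the human annotation (GENCODE release 29, GRCh38), the 44 members with K562 whole-cell half-lives had short 3′ UTRs, with a median of 327 bases beside 868 bases over 11438 genes. The AU-rich letters TATTTAT, known as a core element of unstable mRNAs, were searched on the sense strand of the 3′ UTR with overlapping matches allowed, and occurred in 5 of 44 members (11.4%) and in 3235 of 11438 genes (28.3%). The 5 are shown because they are the members that hold the element, each as a 30-base genomic window of build GRCh38 written 5′ to 3′ on the gene's strand, with T for U and 1 match in capitals.
PSMG1: aatttttatctTATTTATttatttatttat
PSMB2: ttttttagattTATTTATttatttagagac
PSMB5: atcctccatccTATTTATagtggaagggcc
PSMD12: gatatctgtcaTATTTATcctgtgagtcat
PSME3: ctatttctcttTATTTATagtgtcgggctt
The windows lie in the 3′ UTRs of the genes, at chr21:39175307-39175336 on the minus strand (PSMG1, with 5 matches, of which the second is in capitals), chr1:35602325-35602354 minus (PSMB2, 2 matches, the first in capitals), chr14:23025991-23026020 minus (PSMB5), chr17:67339520-67339549 minus (PSMD12) and chr17:42842601-42842630 plus (PSME3). PSMG1, which held most copies, was long-lived for an assembly mRNA. The median whole-cell half-life was 510 min for members with the letters and 510 min for members without, beside 174 and 224 min over all genes. The shares of genes with a match were not adjusted for the shorter 3′ UTRs of the members. They can thus not be read as a depletion of the letters. A match is a description of the sequence and no measured site.

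Gene structure tracked half-life weakly. Spearman's rho between 3′ UTR length and K562 whole-cell half-life was -0.08 over the 44 members and -0.14 over all genes. Between gene span and chromatin half-life rho was 0.13 over the members and 0.26 over all genes. Members had a median span of 17.7 kb and 9 exons, beside 31.5 kb and 9 exons.

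Half-lives were also fitted for each compartment, and they did not add up to the whole-cell ones. In K562 replicate 1 the member medians were 110 min nuclear, 170 min cytoplasmic and 535 min whole-cell. PSMB3 in NIH-3T3 had cytoplasmic modes of 160 and 170 min but whole-cell modes of 88 and 93 min. The cause of this was not tested. On chromatin, K562 members had medians of 40.0 and 45.5 min, slightly under the 48.0 and 53.0 min of all genes, while NIH-3T3 members had 88 and 125 min beside 54 and 72 min. In K562, 6 of 44 members lay above the median gene (29.9% of all genes) and 24 below (32.9%). In NIH-3T3, 35 of 46 lay above (36.5%) and 6 below (37.5%), which were PSMB3, PSMD5, PSMD7, PSMD9, PSMF1 and PSMG3.

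The slowest members on chromatin in K562 were PSMA6, an outer-ring subunit, with 77 and 93 min, PSME4 with 76 and 83 min, and PSMC2, a base ATPase, with 70 and 74 min. The fastest there were PSMD9 with 18 and 19 min, PSMG4 with 22 and 23 min, and PSMD7, a lid subunit, with 23 and 26 min. In NIH-3T3 these 6 had 170 and 220, 170 and 250, 70 and 110, 30 and 42, 88 and 150, and 38 and 52 min in the same order of genes.

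PSMD2, a scaffold subunit of the base, was slowest on chromatin in NIH-3T3 with 250 and 370 min, against 49 and 50 min in K562. PSME1 followed with 190 and 310 min, against 72 and 58 min in K562, and PSMD13, a lid subunit, with 180 and 320 min, against 38 and 41 min. For each of these 3 genes both NIH-3T3 values lay above both K562 values, and NIH-3T3 replicate 2 exceeded replicate 1. The fastest in NIH-3T3 were PSMG3 with 13 and 20 min, PSMF1 with 19 and 43 min and PSMB3 with 23 and 44 min, against 41 and 48, 34 and 37, and 65 and 73 min in K562.

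Nuclear half-lives of the members exceeded those of all genes in both lines, with medians of 110 and 125 min beside 73 and 85 min in K562, and 160 and 160 min beside 77 and 79 min in NIH-3T3. In K562, 31 of 46 members lay above the median gene (36.4% of all genes) and 10 below (37.2%). In NIH-3T3, 37 of 44 lay above (36.4%) and 5 below (35.8%), the latter being PSMB3, PSMD5, PSMD9, PSMF1 and PSMG3.

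PSMA6 had the longest nuclear half-life in K562 with 320 and 450 min, against 260 and 230 min in NIH-3T3. PSMC2 with 260 and 290 min and PSMB3 with 210 and 300 min came next, against 130 and 130 and 55 and 52 min in NIH-3T3. PSMG4 with 20 and 21 min, PSMB9 with 20 and 26 min and PSMD9 with 28 and 36 min were the shortest, and PSMG4 had 340 and 280 min in NIH-3T3. The same gene was thus at the low end in one line and near the high end in the other.

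In NIH-3T3 the longest nuclear half-lives were those of PSMB2 with 380 and 360 min, PSME1 with 320 and 360 min and PSMD2 with 330 and 340 min. The K562 values of these genes were 110 and 160, 150 and 160, and 110 and 120 min. The shortest in NIH-3T3 were PSMG3 with 32 and 25 min, PSMF1 with 48 and 44 min, and PSMB3. PSMG3 was also short in K562 with 44 and 56 min, and PSMD9 had 57 and 52 min in NIH-3T3.

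Export half-life is the time from release off chromatin to exit from the nucleus in the authors' model without nuclear degradation. K562 members had medians of 84.5 and 105 min beside 39 and 47 min for all genes. In K562, 35 of 44 members lay above the median gene (28.1% of all genes) and 5 below (33.9%), namely PSMC5, PSMD9, PSME2, PSMG3 and PSMG4. In NIH-3T3 the medians were 110 and 49 min beside 41 and 28 min, with 15 of 44 above (9.24%) and 1, PSMG3, below (24.6%). The NIH-3T3 replicates stood apart at this step, with 35 members above the median in replicate 1 alone and 17 in replicate 2 alone.

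PSMA6 had the longest export half-life in K562 with 280 and 400 min, against 120 and 44 min in NIH-3T3. PSMC2 with 220 and 240 min and PSMB3 with 160 and 260 min followed, against 81 and 28 and 49 and 6.8 min in NIH-3T3. The shortest with intervals of at most 4-fold were PSMG4 with 2.2 and 1.7 min, PSME2 with 6.8 and 4.3 min, and PSMC5, a base ATPase, with 19 and 4.8 min. These export values lie below the shortest labelling time of 15 min or close to it. In NIH-3T3 PSMG4 had 270 and 160 min, PSME2 had 210 and 36 min, and PSMC5 had 110 and 62 min.

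Among the 31 members with intervals of at most 4-fold in NIH-3T3, PSMB4, an inner-ring subunit, was slowest to export with 180 and 120 min, against 41 and 65 min in K562. PSMA2, an outer-ring subunit, had 190 and 94 min and PSMD1 had 170 and 100 min, against 81 and 120 and 150 and 140 min in K562. PSMG3 with 28 and 16 min, PSME3 with 44 and 13 min, and PSMD3, a lid subunit, with 66 and 11 min were the fastest, against 6.8 and 6.8, 58 and 68, and 72 and 110 min in K562.

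In the cytoplasm the lines parted. K562 members had medians of 170 and 140 min, well above the 86 and 76 min of all genes, while NIH-3T3 members had 39 and 40.5 min beside 37 and 36 min. In K562, 35 of 46 members lay above the median gene (27.9% of all genes) and 4 below (31.3%), namely PSMA6, PSMB5, PSMC2 and PSMG3. In NIH-3T3, 13 of 44 lay above (21.3%) and 11 below (31.8%), close to even. Nuclear and export half-lives of the members thus exceeded those of all genes in both lines, and cytoplasmic ones did so in K562. The contrast in the cytoplasm was not particular to the members. The 8 CCT chaperonin genes, another complex, had cytoplasmic medians of 119 and 114 min in K562 and 33.5 and 29.5 min in NIH-3T3.

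Among the 44 members with intervals of at most 4-fold in K562 and the 40 in NIH-3T3, PSME2 had the longest cytoplasmic half-life in K562 with 560 and 1200 min, against 27 and 130 min in NIH-3T3. PSMB4 had 430 and 370 min and PSME1 had 410 and 290 min, against 28 and 33 and 120 and 100 min. The shortest in K562 were PSMA6 with 46 and 25 min, PSMB5 with 49 and 29 min and PSMG3 with 60 and 53 min. PSMA6 was also shortest of those 40 in NIH-3T3 with 13 and 15 min. PSMB5, whose NIH-3T3 intervals were wider, had 5.2 and 21 min there, and PSMG3 had 50 and 48 min.

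The longest cytoplasmic half-life in NIH-3T3 was that of PSMB3 with 160 and 170 min, against 100 and 64 min in K562, so the gene with the shortest nuclear stay among core subunits had the longest cytoplasmic one. PSME1 came next, followed by PSMF1 with 69 and 110 min, against 150 and 140 min in K562. After PSMA6, PSMB2 with 35 and 11 min and PSMB6 with 24 and 17 min were the shortest of the same 40 in NIH-3T3, against 220 and 140 and 230 and 110 min in K562.

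Loading onto polysomes was fast for the members. Medians were 3.30 and 7.70 min in K562 beside 8.0 and 14.0 min for all genes, and 6.80 and 5.55 min in NIH-3T3 beside 11 and 10 min. In K562, 0 of 45 members lay above the median gene by interval (4.05% of all genes) and 19 below (19.5%). In NIH-3T3, 1 of 44, PSMB10 with 200 and 70 min, lay above (2.47%) and 21 below (18.0%). PSMB10 had 16 and 34 min in K562.

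These polysome values are the least certain. Intervals of at most 4-fold in both tables were reached by 1 member in K562, the lid subunit PSMD11 with 3.3 and 19 min, and by 16 in NIH-3T3. Among those 16, PSMD5 with 6.5 and 11 min, PSMD8 with 8.1 and 7.7 min and PSME4 with 12 and 5 min were the slowest. PSMD2 with 4.6 and 3.6 min, PSMA5, an outer-ring subunit, with 7 and 4.4 min and PSMD1 with 7.3 and 4.4 min were the fastest. In K562 replicate 2, PSMG4 and PSME2 stood at the upper bound of 6900 min with intervals of 73 to 4100 and 26 to 2100 min, while replicate 1 gave 4 and 14 min.

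**Figure D2:**
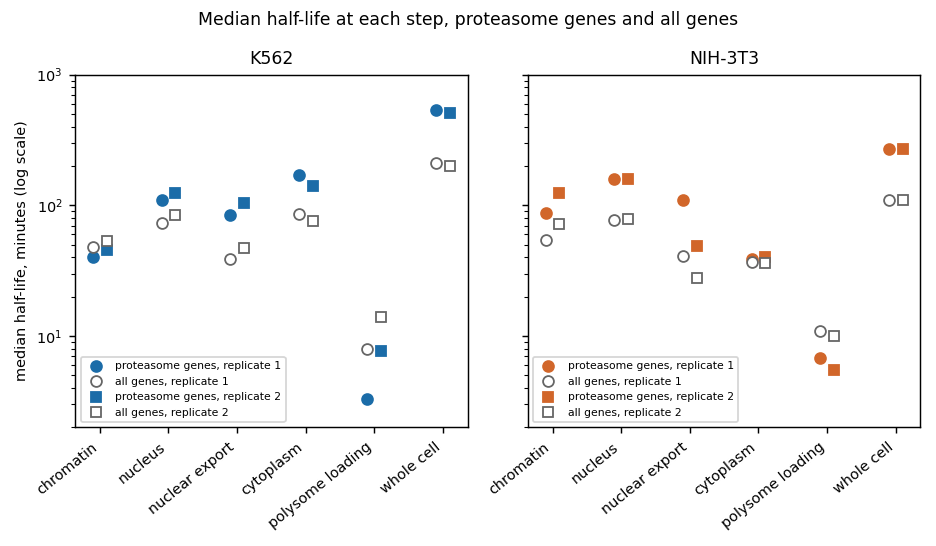
Median half-life in minutes on a log axis at each of 6 steps for proteasome genes (filled) and all genes (open) in the 2 replicates of K562 (left) and NIH-3T3 (right). Members exceed all genes in the cytoplasm in K562 (170 and 140 against 86 and 76 min) but hardly in NIH-3T3 (39 and 40.5 against 37 and 36 min), and exceed them on chromatin in NIH-3T3 (88 and 125 against 54 and 72 min) but not in K562.

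The order of steps within each mRNA was compared next, counting a gene where the intervals of 2 steps lay apart the same way in both replicates. In K562, 7 of 46 members had a longer nuclear than cytoplasmic half-life (24.2% of all genes) and 20 the reverse (26.4%). The 7 were PSMA6, PSMA7, PSMB3, PSMB5, PSMB7, PSMC2 and PSMD12, of which 5 are core subunits. In NIH-3T3, 38 of 44 members had the longer half-life in the nucleus (51.8% of all genes) and 1, PSMB3, in the cytoplasm (5.71%). Nuclear half-life as a share of nuclear plus cytoplasmic half-life had a member median of 36.4% and 49.3% in K562, beside 45.2% and 51.2% over all genes, and of 82.1% and 78.6% in NIH-3T3, beside 65.4% and 66.9%.

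Within the nucleus, export took longer than release from chromatin for 35 of 44 members in K562, where 19.8% of all genes showed this order. The reverse held for 3 of 44 (26.9% of all genes), namely PSME2 with 37 and 41 min on chromatin, PSMG3 and PSMG4. The authors called nuclear degradation for PSME2 and PSMG4 in K562, while these export values come from the model without it. Without genes carrying that call, 1 member kept this order. In NIH-3T3, 7 of 44 members stayed longer on chromatin (29.8%) and 0 took longer to export (1.55%). The 7 were PSMA6, PSMD2, PSMD3, PSMD10, PSMD13, PSME3 and PSME4. Replicate 2 alone gave 35 such members and replicate 1 alone gave 20 members with the longer export. The shares of all genes under 1 replicate are not given here. Over all genes, replicate 2 differed from replicate 1 by a median of 0.45 log2 on chromatin and -0.55 for export.

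Cytoplasmic half-life exceeded the polysome-loading half-life for 42 of 45 members in K562 (55.9% of all genes) and for 36 of 44 in NIH-3T3 (46.8%). The reverse order held for 0 members in either line (0.243% of all genes in K562 and 0.514% in NIH-3T3).

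The lines were then compared gene by gene with limma on log2 posterior modes, 2 tables against 2, for genes with values in all 4 tables, with Benjamini-Hochberg adjustment over all genes of a half-life and calls at an adjusted p under 0.05. Of the members, 44 entered each test. Counts of members at an unadjusted p under 0.05 are given below without the share over all genes. They can thus not be read as particular to the members. Species and line differ together here, so the species, the tissue of origin and the leukaemic state cannot be told apart. Because most genes differed between the lines at some steps, each count is also given with every table centred on its own median gene, which asks whether a member moved relative to the others.

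In whole-cell half-life, 35 of 44 members were higher in K562 (60.2% of all genes) and 2 higher in NIH-3T3 (5.06%). After centring, 9 were higher in K562 (18.2% of all genes) and 8 higher in NIH-3T3 (26.3%). The median K562 minus NIH-3T3 difference was 0.89 on the log2 scale over the members and 0.84 over all genes, or -0.07 and -0.12 after centring, so the members shifted about as far as the typical gene. Of the 37 calls, 11 were kept after centring. When either NIH-3T3 time course was left out, no member was called by limma.

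PSMB3 had the largest whole-cell difference of any member, with a K562 minus NIH-3T3 value of 3.47 ± 0.14 (SE), or 11.1-fold, at an adjusted p of 0.0033 in limma. PSMF1 followed with 2.46 ± 0.15, or 5.50-fold, at 0.0033, and PSMB7 with 2.14 ± 0.27, or 4.39-fold, at 0.0073 in limma. Among the other catalytic subunits, PSMB5 was 3.00-fold and PSMB6 2.77-fold higher in K562, at adjusted p values of 0.0033 and 0.021 in limma. PSMG3 was higher in K562 by 1.46 ± 0.21, at 0.0094 in limma. After centring PSMB6 and PSMG3 had 0.50 and 0.50 and were no longer called. For each of these genes both K562 values lay above both NIH-3T3 values.

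The 2 members that were higher in NIH-3T3 were PSMG4, 9.11-fold higher with a difference of -3.19 ± 0.28 and an adjusted p of 0.0041 in limma, and PSME2, 3.50-fold higher with -1.81 ± 0.35 and 0.019 in limma. PSME1, the partner of PSME2, was higher in K562 by 0.60 ± 0.12 at an adjusted p of 0.023 in limma, a direction that turned to -0.37 after centring. PSMC5 (0.20 ± 0.11, adjusted p = 0.17 in limma) and PSMD9 (0.06 ± 0.14, adjusted p = 0.73 in limma) were not called, and after centring they had -0.77 and -0.91 with adjusted p values of 0.013 and 0.013. PSMB10 had -0.70 ± 0.30 with an adjusted p of 0.12 in limma, and -1.66 with 0.018 after centring.

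On chromatin the members differed from the typical gene, but a shift in this direction was not particular to them. The 8 CCT chaperonin genes, another complex, had chromatin medians of 53.0 and 55.5 min in K562 and 145 and 215 min in NIH-3T3. Other proteasome pathway genes had 39.5 and 43.5 min in K562 and 68.0 and 94.0 min in NIH-3T3. In limma, 34 of 44 members had longer chromatin half-lives in NIH-3T3 (28.6% of all genes) and 2 in K562 (10.0%). After centring, the counts were again 34 (26.8% of all genes) and 2 (25.8%), with 35 of the 36 calls kept. The median difference was -1.28 over the members and -0.35 over all genes, or -0.92 and 0.01 after centring. PSMD2 had the largest, -2.62 ± 0.37 or 6.14-fold at an adjusted p of 2.3e-08, followed by PSMD13 with -2.60 ± 0.37 or 6.08-fold at 3.4e-08 in limma. After centring they had -2.26 and -2.24, with adjusted p values of 0.0034 and 0.0035 in limma. Over all genes the NIH-3T3 replicates differed by a median of 0.45 log2 on chromatin. The uncentred fit takes such a shared shift as independent noise of each gene, so its small p values overstate the certainty. The 2 members with longer values in K562 were PSMB3 (1.11 ± 0.37, adjusted p = 0.013) and PSMG3 (1.46 ± 0.37, adjusted p = 9.6e-04) in limma. Leaving out K562 replicate 1 or 2 lowered the NIH-3T3 count, and leaving out either NIH-3T3 replicate gave no calls of members in limma.

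Nuclear half-life was called longer in NIH-3T3 for 21 of 44 members (20.0% of all genes) and longer in K562 for 5 (19.9%) in limma. Centring gave 21 (24.5% of all genes) and 7 (25.4%). PSMG4 was 15.1-fold higher in NIH-3T3 (-3.91 ± 0.15, adjusted p = 0.010), PSME2 6.14-fold (-2.62 ± 0.40, adjusted p = 0.019) and PSMC5 4.51-fold (-2.17 ± 0.16, adjusted p = 0.010) in limma. In the other direction, PSMB3 was 4.69-fold higher in K562 (2.23 ± 0.22, adjusted p = 0.012) and PSMC2 2.11-fold (1.08 ± 0.12, adjusted p = 0.013) in limma. Without any 1 of the 4 tables limma called no member.

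Export half-life was called longer in NIH-3T3 for 2 of 44 members (4.60% of all genes) and longer in K562 for 0 (4.36%) by limma, with 12 members at an unadjusted p under 0.05. Centring gave 5 longer in NIH-3T3 (15.3% of all genes) and 3 in K562 (9.95%). The 2 were PSMG4, 107-fold higher in NIH-3T3 (-6.75 ± 0.47, adjusted p = 0.018), and PSME2, 16.1-fold higher (-4.01 ± 0.87, adjusted p = 0.049) in limma. Neither gene had export intervals of at most 4-fold in both NIH-3T3 tables, so neither entered the fit restricted to such intervals. Both folds rest on the model without nuclear degradation, while the authors called nuclear degradation for these genes in K562, and the model with degradation gave K562 export half-lives of 2.8 and 3.4 min for PSMG4 and 12 and 15 min for PSME2. With any of the 4 tables left out both calls were lost, and limma called no member. PSMB3 was 11.2-fold higher in K562 (3.48 ± 0.95) with an adjusted p of 0.072 in limma, and its NIH-3T3 values of 49 and 6.8 min were far apart. It was called after centring, at 3.06, and with posterior means, at 3.63. The authors called nuclear degradation for PSMB3 in NIH-3T3, and the model with degradation gave 170 and 4.9 min there.

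In the cytoplasm 36 of 44 members were longer in K562 (53.4% of all genes) and 1 in NIH-3T3 (2.08%) by limma. Centring left 11 (9.84% of all genes) and 2 (14.0%). The median difference was 1.87 over the members and 1.11 over all genes, or 0.65 and -0.11 after centring. PSME2 was 13.8-fold higher in K562 (3.79 ± 0.91, adjusted p = 0.030) and PSMC5 13.5-fold (3.75 ± 0.19, adjusted p = 0.0070) in limma. PSME2 had 2.57 after centring and was then not called. PSMC5 had 330 and 330 min in K562 and 23 and 26 min in NIH-3T3. PSMB4 was 13.1-fold higher (3.71 ± 0.21) and PSMD2 11.2-fold higher (3.49 ± 0.20) in K562, both at an adjusted p of 0.0070 in limma. PSMD2 had 290 and 250 min in K562 and 25 and 23 min in NIH-3T3. The member that was longer in NIH-3T3 was PSMB3, by 2.06-fold (-1.04 ± 0.29, adjusted p = 0.044 in limma). Leaving out K562 replicate 2 lowered the number of calls, and leaving out K562 replicate 1 or either NIH-3T3 replicate gave no calls of members in limma.

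Polysome loading gave 0 of 44 members in either direction in limma (0.443% of all genes higher in K562 and 0.395% higher in NIH-3T3), with 3 members at an unadjusted p under 0.05. Centring also gave 0 and 0 in limma (0.467% and 0.443% of all genes), with 3 members at an unadjusted p under 0.05. PSMB6 had the smallest adjusted p, 0.40 in limma, with 4.2 and 12 min in K562 and 0.92 and 0.51 min in NIH-3T3.

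To test whether the balance between compartments itself differed, the log2 ratio of nuclear to cytoplasmic half-life was compared between the lines. In limma 31 of 44 members had a higher ratio in NIH-3T3 (38.4% of all genes) and 1, PSMB3, a higher ratio in K562 (4.02%). After centring the counts were 21 (14.5% of all genes) and 4 (15.5%). The median difference was -2.58 over the members and -1.08 over all genes. PSME2 had the most negative difference (-6.41 ± 1.18, adjusted p = 0.017), followed by PSMC5 (-5.93 ± 0.33, adjusted p = 0.0078) and PSMB4 (-5.74 ± 0.41, adjusted p = 0.0078) in limma. PSMB3 had 3.27 ± 0.49 at an adjusted p of 0.011 in limma. Leaving out K562 replicate 1 or either NIH-3T3 replicate gave no calls of members in limma.

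**Figure D3:**
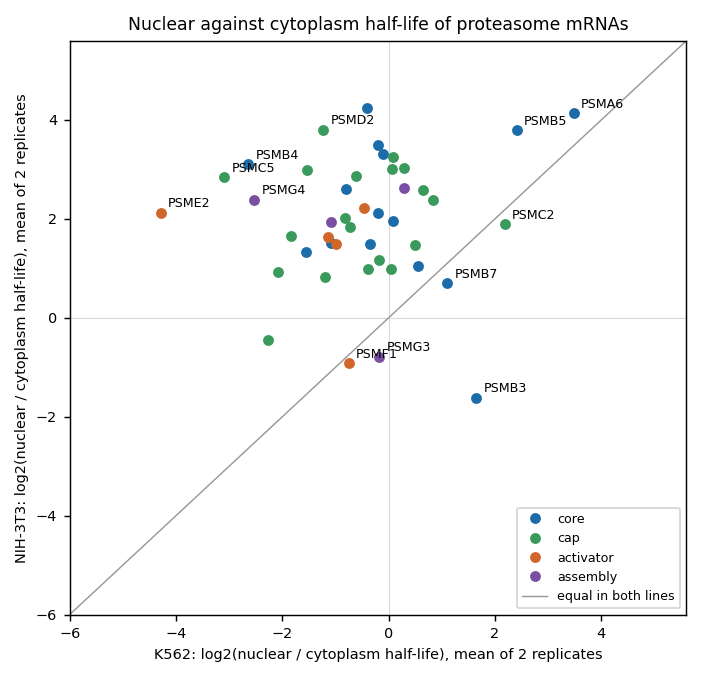
Log2 ratio of nuclear to cytoplasmic half-life of each proteasome mRNA, as the mean of 2 replicates, in K562 (horizontal axis) and NIH-3T3 (vertical axis); points are coloured by class and the diagonal marks equal ratios. Most members lie above the diagonal (a higher ratio in NIH-3T3), and PSMB3 lies far below it.

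For the ratio of chromatin to export half-life, limma called 3 of 44 members higher in NIH-3T3 (5.21% of all genes) and 2 higher in K562 (1.92%). Centring gave 5 (6.95% of all genes) and 2 (11.3%). The 3 were PSMD2 (-3.57 ± 0.95, adjusted p = 0.040), PSMA6 (-3.40 ± 0.82, adjusted p = 0.031) and PSMD10 (-2.80 ± 0.76, adjusted p = 0.042) in limma. PSMD10 had 40 and 48 min on chromatin in K562 and 120 and 130 min in NIH-3T3, and its ratio of -2.04 after centring was not called. PSMG4 (4.40 ± 0.80, adjusted p = 0.013) and PSMG3 (3.10 ± 0.80, adjusted p = 0.037) were higher in K562 in limma. Their K562 export modes were 2.2 and 1.7 min for PSMG4 and 6.8 and 6.8 min for PSMG3. All of these modes lie below the shortest labelling time, so the sizes of both ratios are uncertain. For PSMG4 the authors called nuclear degradation in K562, while the ratio uses export from the model without it. With posterior means PSMD2 (-3.64) and PSMG3 (2.97) were not called. Not every call held when 1 table was left out. Without NIH-3T3 replicate 1 the differences were -5.12 for PSMD2, -4.31 for PSMA6 and 3.63 for PSMG4, and without replicate 2 they were -2.02, -2.49 and 5.16. Over all genes, NIH-3T3 replicate 2 differed from replicate 1 by a median of 0.45 log2 on chromatin and -0.55 for export, so the ratio shifted for the whole table. The ratio of cytoplasmic to polysome half-life gave 0 members in either direction in limma (0% of all genes higher in K562 and 0% higher in NIH-3T3), with 13 at an unadjusted p under 0.05, and again 0 and 0 after centring, with 10 at an unadjusted p under 0.05.

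The authors also called nuclear degradation, where a model with decay inside the nucleus was favoured. They called 4 of the 43 members assessed in K562 (3.25% of all genes), namely PSMC5, PSMD9, PSME2 and PSMG4, and 1 of 44 in NIH-3T3 (4.36%), namely PSMB3. Their nuclear degradation half-lives were 80 and 66 min for PSMC5, 46 and 55 min for PSMD9, 55 and 46 min for PSME2 and 26 and 26 min for PSMG4 in K562, and 66 and 55 min for PSMB3 in NIH-3T3. The 4 K562 genes were also among the 5 members with export half-lives below the median gene there. Both calls use the same nuclear data, so the short export values and the degradation calls are not separate observations.

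**Figure D4:**
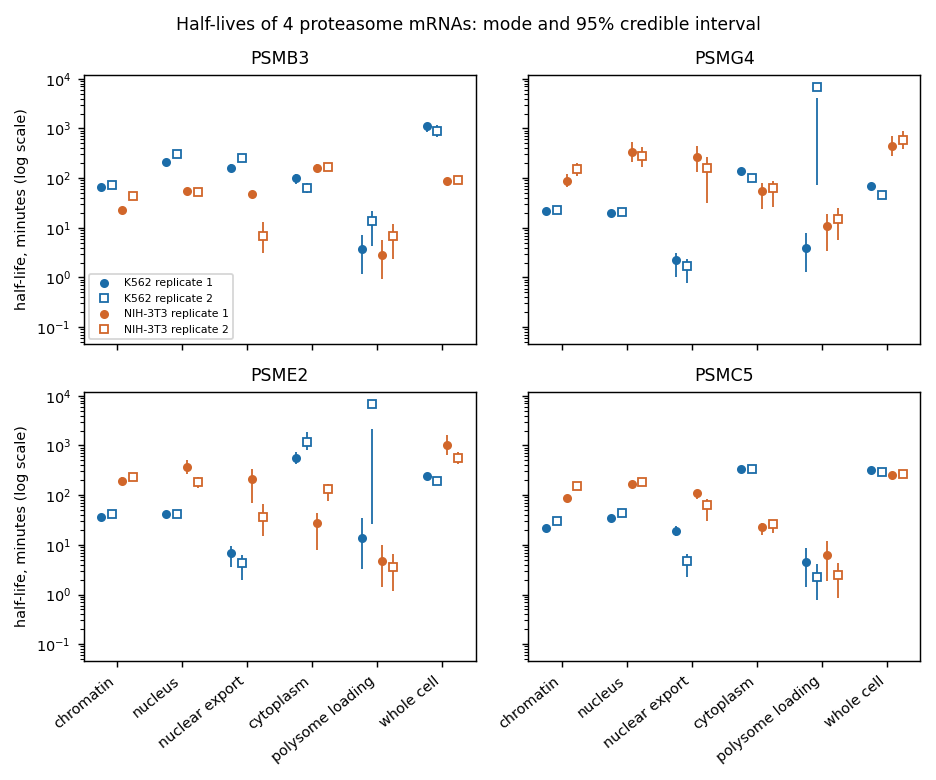
Half-lives of PSMB3, PSMG4, PSME2 and PSMC5 in minutes on a log axis at each of 6 steps, as posterior modes with the authors' 95% credible intervals, in both replicates of K562 and NIH-3T3. PSMG4 and PSME2 drop at nuclear export in K562 (2.2 and 1.7 min, 6.8 and 4.3 min), PSMB3 is lower in NIH-3T3 on chromatin, in the nucleus and in the whole cell, and modes at 6900 min lie above their own intervals.

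Annotation that could touch the counts was looked up for the human genes only. No mouse annotation was at hand, so the NIH-3T3 values, those of PSMB3 included, were not checked in this way. On GRCh38, PSMG4 spans chromosome 6 from 3231403 to 3303373 on the plus strand and PSMB3 spans chromosome 17 from 38752736 to 38764231 on the plus strand, neither with another annotated exon across its own. PSMB3 has 1 annotated pseudogene named after it and PSME2 has 2. PSMC5 (chromosome 17, 63827152 to 63832026, plus strand) shares exonic positions with FTSJ3 on the opposite strand. PSME2 (chromosome 14, 24143362 to 24147570, minus strand) does so with RNF31, and with MIR7703 on its own strand. PSMD9 (chromosome 12, 121888731 to 121918297, plus strand) overlaps exons of WDR66 on its own strand. In all, 7 members overlap exons of another gene on the same strand and 12 on the opposite strand, and 12 have annotated pseudogenes named after them, up to 13 for PSMC1. The library kit keeps strand, but how reads were counted is not given in the sources used here, so values of these members are uncertain to that extent.

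Members ranked more alike between replicates than between lines, least so for polysome loading. Across the members, Spearman's rho of whole-cell half-life was 0.914 between the K562 replicates (44 members, 0.878 over all genes) and 0.935 between the NIH-3T3 replicates (45 members, 0.903). Between the lines it was 0.214 over 44 members, beside 0.631 over 8913 genes. The between-line rho was also lower for the members than for all genes on chromatin (0.242 beside 0.522), in the nucleus (0.183 beside 0.609), for export (0.115 beside 0.492) and in the cytoplasm (0.0936 beside 0.582). For polysome loading rho was 0.409 between the K562 replicates, 0.515 between the NIH-3T3 replicates and 0.324 between the lines (0.409 over all genes), and for export it was 0.634 between the NIH-3T3 replicates. These are descriptions across genes, which share libraries and are not independent. The members' smaller spread, given above, moves with the lower rho, and its part in it was not tested.

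Other genes of the proteasome pathway were taken from a list of shuttling receptors, deubiquitinases, chaperones and regulators, of which 22 had whole-cell values in K562 and 21 in NIH-3T3. In K562, 14 of 22 lay above the median gene (31.6% of all genes) and 5 below (32.3%), the latter being AKIRIN2, DDI2, UBE3C, ZFAND2A and ZFAND5. In NIH-3T3, 13 of 21 lay above (34.0%) and 4 below (33.3%). Their median whole-cell half-life was 345 min in K562 and 170 min in NIH-3T3, between the medians of all genes and of the members. ZFAND5, a proteasome-binding zinc-finger protein, had 64 and 61 min in K562 and 31 and 35 min in NIH-3T3, while NFE2L1, the transcription factor that drives proteasome genes, had 150 and 180 min and 120 and 110 min.

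POMP, the chaperone that completes the core with the PSMG proteins, had whole-cell half-lives of 830 and 680 min in K562 and 360 and 330 min in NIH-3T3, in the range of the core subunits. Its cytoplasmic half-life was 32 and 22 min in K562 and 79 and 93 min in NIH-3T3, longer in NIH-3T3 by limma (-1.69 ± 0.28, adjusted p = 0.013). Its nuclear to cytoplasmic ratio was higher in K562 (3.05 ± 0.45, adjusted p = 0.011 in limma), as for PSMB3. Of 21 pathway genes, limma called 16 higher in K562 in whole-cell half-life (60.2% of all genes) and 0 higher in NIH-3T3 (5.06%), and 4 (18.2%) and 4 (26.3%) after centring. For the nuclear to cytoplasmic ratio it called 14 higher in NIH-3T3 (38.4% of all genes) and 1, POMP, higher in K562 (4.02%), and 6 (14.5%) and 1 (15.5%) after centring. Without either NIH-3T3 replicate both counts were 0 for both measures, and without K562 replicate 1 they were 0 for the ratio. The 8 CCT chaperonin genes, another complex of fixed stoichiometry, had a median whole-cell half-life of 747 min in K562 and 372 min in NIH-3T3, above that of the core subunits.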

How the data were processed

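Half-lives came from subcellular TimeLapse-seq of 100 untreated samples. Per the submitters' processing notes, cutadapt 2.5, STAR 2.7.0a and the hg38 and mm10 builds were used. Per the file headers, the authors deposited half-lives in minutes (an absolute time, not normalized between tables) as posterior mode, mean and 2.5% and 97.5% quantiles, and Bayes factors. Values have 2 significant digits, and modes reach at most 6900 min. The settings of the authors' fit are not given in the sources used here, and read depth is unknown, so the credible intervals are the measure of precision.

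A member lay above or below the median gene where its interval did so in both tables. Lines were compared with limma 3.58.1 in R 4.3.3, two-sided, on log2 modes of 14100 symbols paired ignoring case (47 members), without pseudocount. The script was tested on simulated whole-cell data with independent noise for each gene. Those data hold no shift shared by a whole table, so the test does not cover such shifts. Ranks, medians and correlations used pandas 2.3.3 in Python 3.11.15. Human gene models were GENCODE 29. Members and lists were chosen with earlier results of these data known.

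Values were named by rule: per half-life the 3 longest and 3 shortest members with intervals of at most 4-fold, members of calls of 5 or fewer, catalytic pairs and 1 typical member per class. Other members and the pathway genes named were picked after their values were seen. Alternatives used posterior means, narrow intervals, centring, a replicate block, other medians or classes, no values at the bound, and 1 table fewer.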

Additional observations from a re-analysis of the deposited data

Results flagged for a closer look

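Differences between the lines in the balance of compartments passed the limma test of the ratio itself for several members. For nuclear against cytoplasmic half-life, 31 of 44 members had the higher ratio in NIH-3T3 (38.4% of all genes) and 1 in K562 (4.02%), or 21 and 4 after centring. Leaving out K562 replicate 1 or either NIH-3T3 replicate gave no calls of members in limma. The K562 minus NIH-3T3 log2 values of the members named were 3.27 for PSMB3, -6.41 for PSME2, -5.93 for PSMC5 and -5.74 for PSMB4. For PSME2, the 2 NIH-3T3 cytoplasmic modes behind the value were far apart, at 27 and 130 min.

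For chromatin against export half-life, 3 members had the higher ratio in NIH-3T3 (5.21% of all genes) and 2 in K562 (1.92%), or 5 and 2 after centring. Not every call held when 1 table was left out. The difference of PSMD2 was -5.12 without NIH-3T3 replicate 1 and -2.02 without replicate 2. The values were -3.57 for PSMD2, -3.40 for PSMA6, -2.80 for PSMD10, 3.10 for PSMG3 and 4.40 for PSMG4. The NIH-3T3 export medians of the members, 110 and 49 min, show how far the replicates behind these ratios lay apart. In K562 the export modes were 6.8 and 6.8 min for PSMG3 and 2.2 and 1.7 min for PSMG4. All of these modes lie below the shortest labelling time, so the sizes of both ratios are uncertain. The authors also called nuclear degradation for PSMG4 in K562.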

How the results depend on the processing

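Counts below are members called by limma as higher in K562 and then in NIH-3T3, beside the reported value. Centring each table changed export from 0 and 2 to 3 and 5, cytoplasm from 36 and 1 to 11 and 2, whole cell from 35 and 2 to 9 and 8, the nuclear to cytoplasmic ratio in K562 from 1 to 4 and the chromatin to export ratio in NIH-3T3 from 3 to 5. For the pathway genes it changed the whole-cell counts from 16 and 0 to 4 and 4 and the nuclear to cytoplasmic ratio in NIH-3T3 from 14 to 6. It reversed the whole-cell differences of PSME1 (-0.37), PSMC5 (-0.77) and PSMD9 (-0.91). The replicate block gave 3 members for nuclear half-life higher in K562, 4 for export higher in K562, 0 for cytoplasm higher in NIH-3T3 and 13 for the chromatin to export ratio higher in NIH-3T3. It moved no other count by over 1.5 times. Of the genes named with a test, it ended the calls of PSME1 in the whole cell and PSMB3 in the cytoplasm and added that of PSMB3 for export, with unchanged differences. Replicate numbers did not pair the tables, as deviations of same-numbered tables correlated at -0.05 to 0.02 over genes. Posterior means gave 2 export calls and 1 chromatin to export call in K562. Intervals of at most 4-fold gave export 1 and 1, and chromatin to export 0 and 12. PSMG4 and PSME2, the export calls of the main fit, did not enter that export fit. Without values at the bound 1 member was longer on chromatin in K562, as PSMB3 was no longer called.

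Leaving out 1 table at a time gave, from lowest to highest, chromatin 0 to 0 and 0 to 12, nuclear 0 to 0 and 0 to 0, export in NIH-3T3 0 to 0, cytoplasm 0 to 23 and 0 to 0, whole cell 0 to 28 and 0 to 1, nuclear to cytoplasmic ratio 0 to 1 and 0 to 28, and chromatin to export ratio 0 to 2 and 0 to 30. The pathway genes had 0 to 13 for whole cell in K562, and 0 to 1 and 0 to 11 for the nuclear to cytoplasmic ratio. PSMD9 ranged from -0.06 to 0.18, with -0.06 and -0.01 as its reversed values. With 1 table in a line, the test assumes that it varies like the other line. Shares over all genes are not given for these counts, nor for the counts at an unadjusted p under 0.05. Neither kind of count can thus be read as particular to the members.

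With 1 replicate alone, the interval counts in K562 were 2 to 3 above and 23 to 31 below the median for polysome loading, 7 to 14 for nuclear over cytoplasm and 20 to 31 for the reverse. In NIH-3T3 they were 17 to 35 above and 1 to 8 below for export, 2 to 2 above for polysome loading, 1 to 4 for cytoplasm over nuclear, 7 to 35 for chromatin over export and 0 to 20 for the reverse. Without genes with the degradation call, 1 K562 member stayed longer on chromatin than in export. Against the median of genes with narrow intervals, 8 NIH-3T3 members lay below for polysome loading.

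Whole-cell class medians in K562 with 1 replicate were 600 to 740 min for core, 425 to 485 for cap and 500 to 510 for activators, and cap nuclear was 105 to 115. In NIH-3T3 they were 290 to 290 for core whole cell, 174 to 190, 144 to 155 and 180 to 250 for core, cap and activator nuclear, and 40.0 to 41.0, 36.0 to 36.4 and 50.0 to 100 for their cytoplasm. Posterior means gave 100 min for cap nuclear in K562, and in NIH-3T3 292, 86.3, 150 and 37.0 for core whole cell, chromatin, nuclear and cytoplasm, and 33.4 and 34.4 for cap and assembly cytoplasm. Narrow intervals gave 310 for core whole cell and 49.0 for assembly cytoplasm in NIH-3T3, and SDs over members of 0.85 for K562 cytoplasm and 0.26 for NIH-3T3 polysome loading. With PSMD5, PSMD9 and PSMD10 in the assembly class, its whole-cell median was 230 in K562, and in NIH-3T3 cap and assembly had 250 and 160 in the whole cell, 175 and 110 in the nucleus and 36.4 and 32.6 in the cytoplasm. The cause of these changes was not tested. Of 376 values with 1 table left out, 183 kept direction and side of the threshold or stayed close, 82 moved, 109 lost their call and 2 were reversed. Those 109 lost calls were among 152 values of single genes. Of 410 values under other settings, 352 stayed the same, 42 moved, 9 lost and 4 gained a call and 3 were reversed. With 2 tables per line and unknown depth, values under 15 or over 120 min lie outside the labelling times sampled.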

Other observations

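The authors' posterior mean lay outside its own 95% interval in 17 of 1077 member values (1.58%), beside 2526 of 297613 values over all genes (0.849%). Among nuclear half-lives this held for 8 of 181 member values (4.42%), beside 1.82% over all genes. PSMA4 on chromatin in NIH-3T3 replicate 1, for example, had a mode of 120 min and a mean of 22 min. The posterior mode lay outside its interval for 7 member values, 2 of them cytoplasmic values of PSMB9 and 5 polysome values of PSMB8, PSMB9, PSME2 and PSMG4.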
